A study of Mus musculus with 8 samples.

Results

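Fibroblast growth factors (FGFs) are a family of ligands, some of which carry signals between the dermis and the hair follicle. Fgf5, Fgf7 and Fgf17, 3 of their genes, are described here in the skin of hairless mouse pups. The genes were chosen by name, through the RefSeq accession of their array probes, and each had 1 probe, so that the set held 3 of 21766 probes. The tested animals were near naked hairless mutants aged 7 days, which carry a mutation of the hairless gene, and the animals they were set against were wild type mice of the same age. Total RNA of mutant and wild type skin was hybridized together on 2-colour spotted oligonucleotide arrays, 8 in all, with the mutant RNA in Cy5 on arrays 2, 4, 6 and 7 and in Cy3 on arrays 1, 3, 5 and 8. By the submitters' account of the design the animals were 5 biological replicates of 1 litter, and no label says which array held which animal, so some of the 8 arrays share an animal and p-values over arrays are too small. No zygosity, strain or pooling of pups is stated for either group.

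FGFs bind receptor tyrosine kinases on neighbouring cells together with heparan sulfate, and the receptors pass the signal on through Ras and a relay of kinases. In the mouse hair follicle Fgf5, made in the outer root sheath late in the growth phase, is the signal that ends hair growth, and mice without it have long angora hair. Fgf7, the keratinocyte growth factor, is made by dermal fibroblasts and the dermal papilla and acts on epithelial cells, and mice without it have matted fur. Fgf17 belongs to the Fgf8 subfamily and is best known for its part in the growth of the midbrain and cerebellum. The hairless protein, encoded by Hr, is a corepressor that works with nuclear receptors, and mouse pups of this age are in the first growth phase of their hair.

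Nuclear receptors that partner with the hairless protein, such as the vitamin D and thyroid hormone receptors, bind elements built from the core motif AGGTCA, and the bases before the start of Fgf5 and Fgf7 are therefore shown, each 250 bases long on the plus strand, from RefSeq on GRCm38.p6. They lie at chr5:98253934-98254183 for Fgf5 and at chr2:126034408-126034657 for Fgf7. Capitals mark AGGTCA, searched on both strands.
Fgf5: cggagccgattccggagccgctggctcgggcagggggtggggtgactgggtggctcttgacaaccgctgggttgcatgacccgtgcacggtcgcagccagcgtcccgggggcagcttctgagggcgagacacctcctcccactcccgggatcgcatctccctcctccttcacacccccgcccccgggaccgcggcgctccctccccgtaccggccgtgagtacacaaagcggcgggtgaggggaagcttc
Fgf7: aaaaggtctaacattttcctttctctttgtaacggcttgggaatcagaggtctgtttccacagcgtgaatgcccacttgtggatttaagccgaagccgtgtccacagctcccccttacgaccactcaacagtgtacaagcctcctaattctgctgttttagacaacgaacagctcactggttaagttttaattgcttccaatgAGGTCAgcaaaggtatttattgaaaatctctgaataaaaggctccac
The Fgf7 stretch held the motif 1 time and the Fgf5 stretch 0 times, where 14% of 32851 such stretches in the table held it. The 2 stretches also differed in base composition, with 70.8% G and C for Fgf5 and 43.6% for Fgf7, against a median of 52.4% over all stretches. These letters describe the genome next to the genes, and the arrays did not measure binding there.

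The values are log ratios of the 2 channels of an array, taken here as log2 of mutant over wild type, so that -1 is a level in the mutant of 50% of wild type. That direction is the likely one, given how the labels list the samples, but no label or header states it, and the opposite sign would turn every direction given below. An array gave values for 41.3% to 88.3% of its rows, with the fewest on arrays 3, 2 and 1. Among the 232 replicate spots of Gapdh, which carry 1 gene, arrays of opposite dye orientation correlated below 0 in 16 of 16 pairs and arrays of the same orientation above 0 in 12 of 12. Over all 21766 probes the median r of opposite orientations was -0.02, with 10 of 16 pairs below 0, beside 0.49 for the same orientation. The part of a ratio that is common to both orientations was therefore read as the difference between mutant and wild type, and what changes with the orientation was called the dye part, the Cy5-mutant ratio minus the Cy3-mutant ratio. Each probe measured on at least 3 of 4 arrays per orientation was fitted with both parts in limma, and 11974 probes passed this filter, with all 3 FGF genes among them.

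Fgf5 fell in the mutant skin. The log2 ratio of Fgf5 was -1.06, -1.64, -1.15 and -0.91 on arrays 2, 4, 6 and 7, with the mutant in Cy5, and -0.88, -0.61 and -1.61 on arrays 1, 5 and 8, with the mutant in Cy3. The 7 arrays with a value were all below 0, array 3 had none, and the ranges of the 2 dye orientations overlapped. The fitted log2 ratio was -1.11 ± 0.20 (SE, 7 arrays), with a 95% interval from -1.56 to -0.67, past the threshold of 0.05 in limma (adjusted p = 0.0106). On the linear scale this is 46.3% of the wild type level, with an interval from 34.0% to 63.0%. Of all probes tested, 4.21% were called in either direction, 3.53% were called lower and 4.56% were below 0 on every array with a value, and Fgf5 held rank 298 of 11974 from the lowest ratio. In whole skin, fewer cells that make Fgf5 and less Fgf5 RNA per cell cannot be told apart.

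The dye part of Fgf5 was small beside its ratio. The mean log2 ratio was -1.19 ± 0.31 with the mutant in Cy5 (SD, n = 4), against -1.03 ± 0.52 with it in Cy3 (SD, n = 3). The dye part was -0.15 ± 0.41 (SE), with a 95% interval from -1.04 to 0.74 (limma, adjusted p = 0.816). Without array 1 the ratio of Fgf5 was -1.15 and the call was lost (adjusted p = 0.0624), and with arrays 4 to 8 alone it was -1.17 (adjusted p = 0.0757), while without any other single array it stayed past the threshold. Under the reading of the table as Cy5 over Cy3, in which the orientation part would be the genotype, the ratio was -0.08 and not past the test (adjusted p = 0.816).

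**Figure D1:**
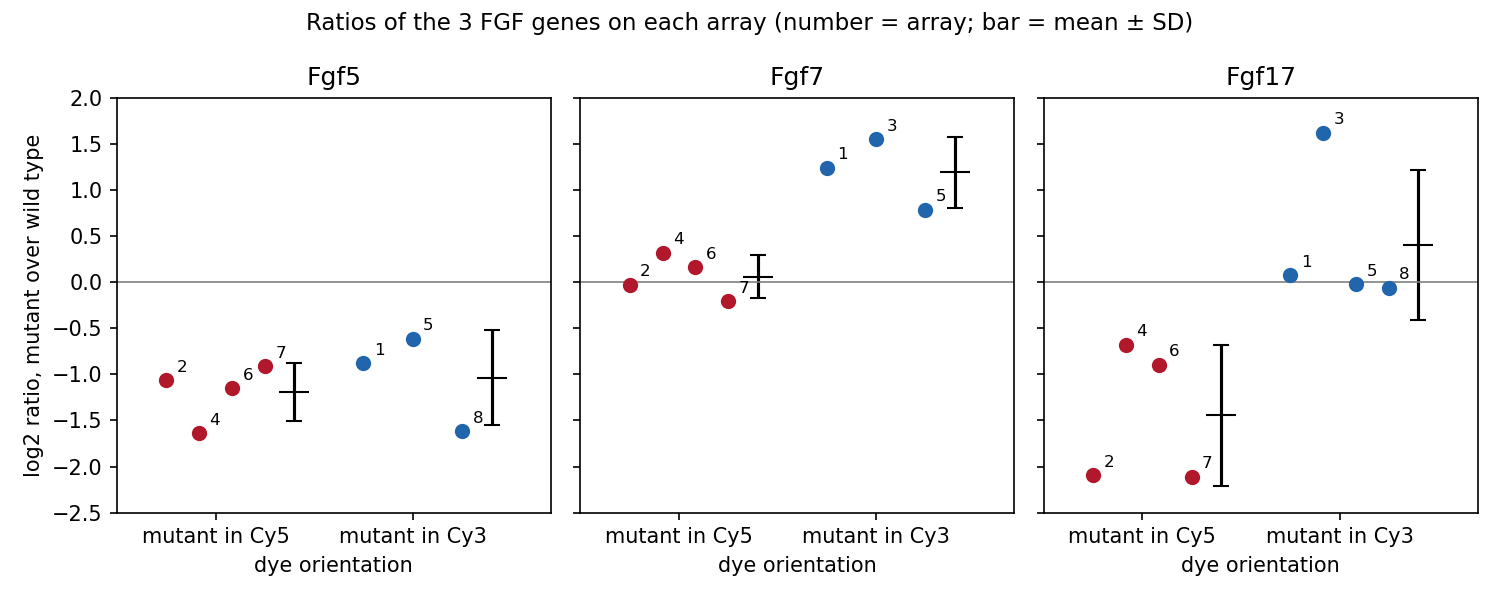
Log2 ratios of mutant over wild type for Fgf5, Fgf7 and Fgf17 on each array (points, numbered by array), by dye orientation, with the mean ± SD of each orientation beside them. All 7 values of Fgf5 lie below 0 in both orientations, while the values of Fgf7 and Fgf17 with the mutant in Cy5 lie below all those with the mutant in Cy3.

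Fgf7 had a ratio above 0 that did not pass the test. The log2 ratio of Fgf7 was -0.03, 0.32, 0.16 and -0.21 on arrays 2, 4, 6 and 7, with the mutant in Cy5, and 1.24, 1.56 and 0.79 on arrays 1, 3 and 5, with the mutant in Cy3. Array 8 had no value, and every value with the mutant in Cy5 lay below every value with the mutant in Cy3. The fitted log2 ratio was 0.63 ± 0.19 (SE, 7 arrays), with a 95% interval from 0.21 to 1.05 and 5 arrays above 0 (limma, adjusted p = 0.0916). The ratio of Fgf7 passed with quantile normalization (0.66, adjusted p = 0.0478) and with array weights (0.58, adjusted p = 0.0205), and under the Cy5 over Cy3 reading it was -0.57 (adjusted p = 0.0789).

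The mean log2 ratio of Fgf7 was 0.06 ± 0.23 with the mutant in Cy5 (SD, n = 4), against 1.20 ± 0.39 with it in Cy3 (SD, n = 3). The dye part was -1.13 ± 0.38 (SE), with a 95% interval from -1.97 to -0.30 (limma, adjusted p = 0.0789). Such a split, with no overlap between the orientations and the lower values with the mutant in Cy5, was seen in 10.2% of probes. The 4 arrays with the mutant in Cy5 thus stood near 0 and the 3 arrays with the mutant in Cy3 above it.

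Fgf17 had values on all 8 arrays and did not pass the test either. Its log2 ratio was -2.10, -0.68, -0.89 and -2.11 on arrays 2, 4, 6 and 7, with the mutant in Cy5, and 0.08, 1.62, -0.02 and -0.06 on arrays 1, 3, 5 and 8, with the mutant in Cy3. All 4 arrays of the first kind were below 0, and of the others array 3 was the highest and arrays 1, 5 and 8 lay close to 0. The fitted log2 ratio was -0.52 ± 0.25 (SE, 8 arrays), with a 95% interval from -1.06 to 0.02 (limma, adjusted p = 0.260). Read as Cy5 over Cy3, the ratio of Fgf17 was -0.93 (adjusted p = 0.0506). The mean was -1.45 ± 0.77 with the mutant in Cy5, against 0.41 ± 0.81 with it in Cy3 (SD, n = 4 each).

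The dye part of Fgf17, at -1.85 ± 0.50 (SE), had a 95% interval from -2.93 to -0.77 and an adjusted p of 0.0506 in limma, next to the threshold. It passed under 5 of 9 other settings and without array 8 (-2.01, limma, adjusted p = 0.0369), and missed without any other single array. Of all probes tested, 0.894% were called for a dye part in this direction, and Fgf17 itself was not called. Its values with the mutant in Cy5 all lay below those with the mutant in Cy3, a split seen in 10.2% of probes. The dye part of Fgf17 was thus larger in size than its common ratio.

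Side by side, the ratios ran from Fgf7 at 0.63 through Fgf17 at -0.52 to Fgf5 at -1.11. Read as Cy5 over Cy3 the order turned, with Fgf5 at -0.08, Fgf7 at -0.57 and Fgf17 at -0.93. In the reading as mutant over wild type, 3 pairs were compared on the arrays that measured both genes. Fgf5 was lower than Fgf7 on 6 of 6 arrays, by a mean of -1.42 ± 0.54 (SD) on the log2 scale (exact sign-flip test, two-sided, p = 0.0313, adjusted over the 3 pairs 0.0469), the lowest p possible with 6 arrays. Fgf7 was higher than Fgf17 on 6 of 7 arrays, by 1.13 ± 0.71 (exact sign-flip test, p = 0.0313, adjusted 0.0469). Fgf5 and Fgf17 differed by -0.30 ± 1.05, with 5 of 7 arrays below 0 (exact sign-flip test, p = 0.469), which is within the spread between arrays. That spread included the dye orientation, for which these pair tests had no term. The difference was 1.03, -0.96, -0.25 and 1.20 on arrays 2, 4, 6 and 7, with the mutant in Cy5. On arrays 1, 5 and 8, with the mutant in Cy3, it was -0.95, -0.595 and -1.55.

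**Figure D2:**
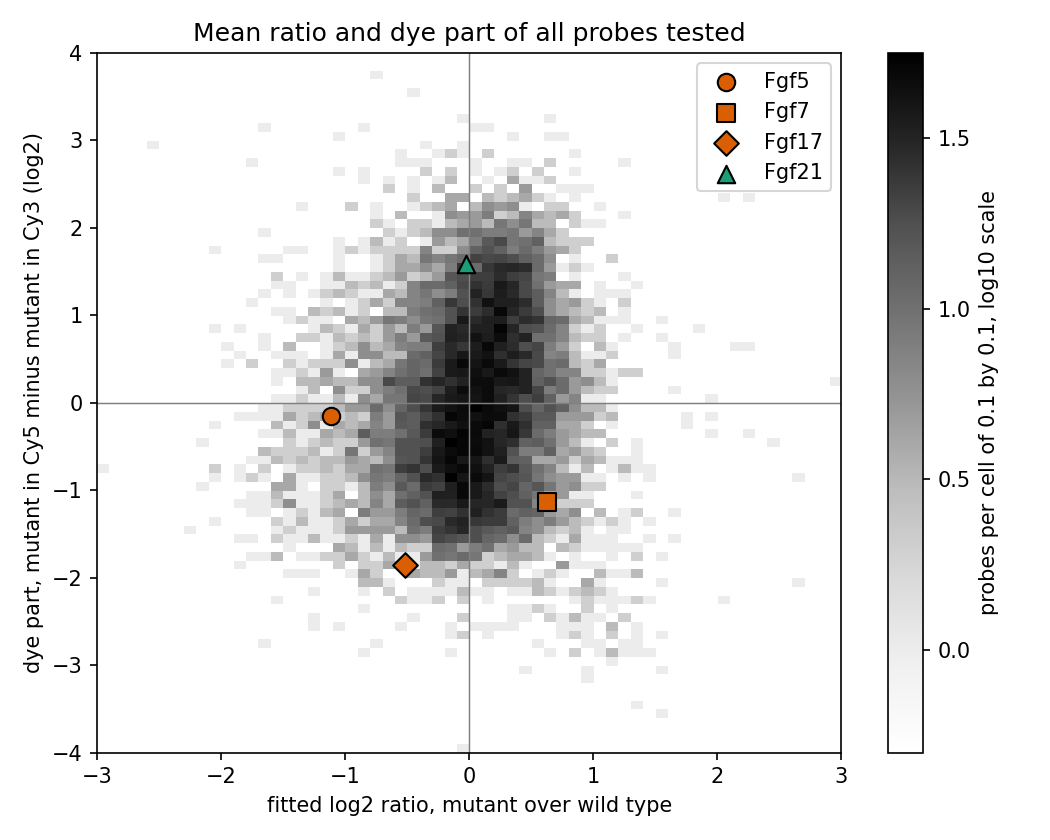
Fitted log2 ratio of mutant over wild type (horizontal) and dye part (vertical, log2) of the 11974 probes tested, with grey for the number of probes per cell on a log10 scale and coloured marks for Fgf5, Fgf7, Fgf17 and Fgf21. Fgf5 lies far to the left with a dye part of -0.15, while Fgf7 at -1.13 and Fgf17 at -1.85 lie low on the dye axis and Fgf21 at 1.59 lies high.

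Of 22 FGF ligand genes looked for, 15 had a probe, and 7 of these passed the filter on values. Among the 7, 1 was lower, Fgf5, none was higher and 6 did not pass, where 3.53% of all probes were called lower and 0.676% higher. The median of the 7 fitted log2 ratios was -0.38, beside 0.05 over all probes tested, with 5 below 0. Fgf5 had the lowest ratio of them, but read as Cy5 over Cy3 it lay at -0.08, above Fgf17 at -0.93, Fgf11 at -0.68, Fgf7 at -0.57, and Fgf13 and Fgf15 at -0.50 each. Fgf13, an intracellular member that binds sodium channels, stood nearest to it at -0.62 ± 0.17 (SE, limma, adjusted p = 0.0681), with values from -1.48 to 0.28 and 6 of 8 arrays below 0. Fgf13 passed with array weights (-0.55, adjusted p = 0.0204) and when only probes with values on all 8 arrays were tested (-0.62, adjusted p = 0.0466). Its mean was -1.12 with the mutant in Cy5, against -0.12 with it in Cy3. Every value of Fgf13 with the mutant in Cy5 lay below those in Cy3, a split seen in 10.2% of probes tested. The dye part of Fgf13 was -0.997 ± 0.35 (SE, limma, adjusted p = 0.0829), larger in size than its ratio.

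Fgf15, a hormone of the mouse gut that acts on the liver, had a ratio of -0.38 ± 0.19 (SE, limma, adjusted p = 0.269), with values from -1.42 to 0.39. Fgf21, a hormone of fasting, had a ratio of -0.03 ± 0.19 (limma, adjusted p = 0.950). Its values were 1.25, 0.18, 0.74 and 0.89 with the mutant in Cy5, against -0.32, -1.43, -0.72 and -0.81 with it in Cy3, in array order. It was thus above 0 on all 4 arrays of one orientation and below 0 on all 4 of the other. Its dye part was 1.59 ± 0.38 (limma, adjusted p = 0.0410), opposite in sign to that of Fgf17. Of all probes, 4.45% were called in this direction, and in 17.5% the orientations did not overlap in this way. Fgf11, another intracellular member, had the highest ratio of the ligands at 0.70 ± 0.52 (limma, adjusted p = 0.480), with a value of 4.43 on array 1 and none above 0.41 elsewhere. Without array 1 its ratio was -0.06.

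Of the ligands that failed the filter, Fgf2, a broad growth factor of fibroblasts and vessels, had 6 values from -0.99 to 0.15 with a mean of -0.31 ± 0.43 (SD, exact sign-flip test, p = 0.0938). Fgf3, a factor of inner ear and limb development, had 6 values from -1.12 to 0.84 with a mean of -0.03 ± 0.74 (SD, exact sign-flip test, p = 0.906). Fgf3 was higher on all 4 arrays with the mutant in Cy5 than on both arrays with the mutant in Cy3. Of the probes that passed the filter, 17.5% had no overlap in that direction. Fgf10, the dermal factor closest to Fgf7 in sequence, had values on 4 arrays, -0.38 and -0.28 with the mutant in Cy5, against 0.77 and 0.68 with it in Cy3, an order like that of Fgf7. That order was seen in 10.2% of the probes that passed the filter, which had more values. Fgf18, which restrains resting follicles in the mouse, had 5 values, all above 0, from 0.01 to 0.75. Fgf9 and Fgf14 had 5 values each, Fgf1 had 2 and Fgf4 had 1.

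**Figure D3:**
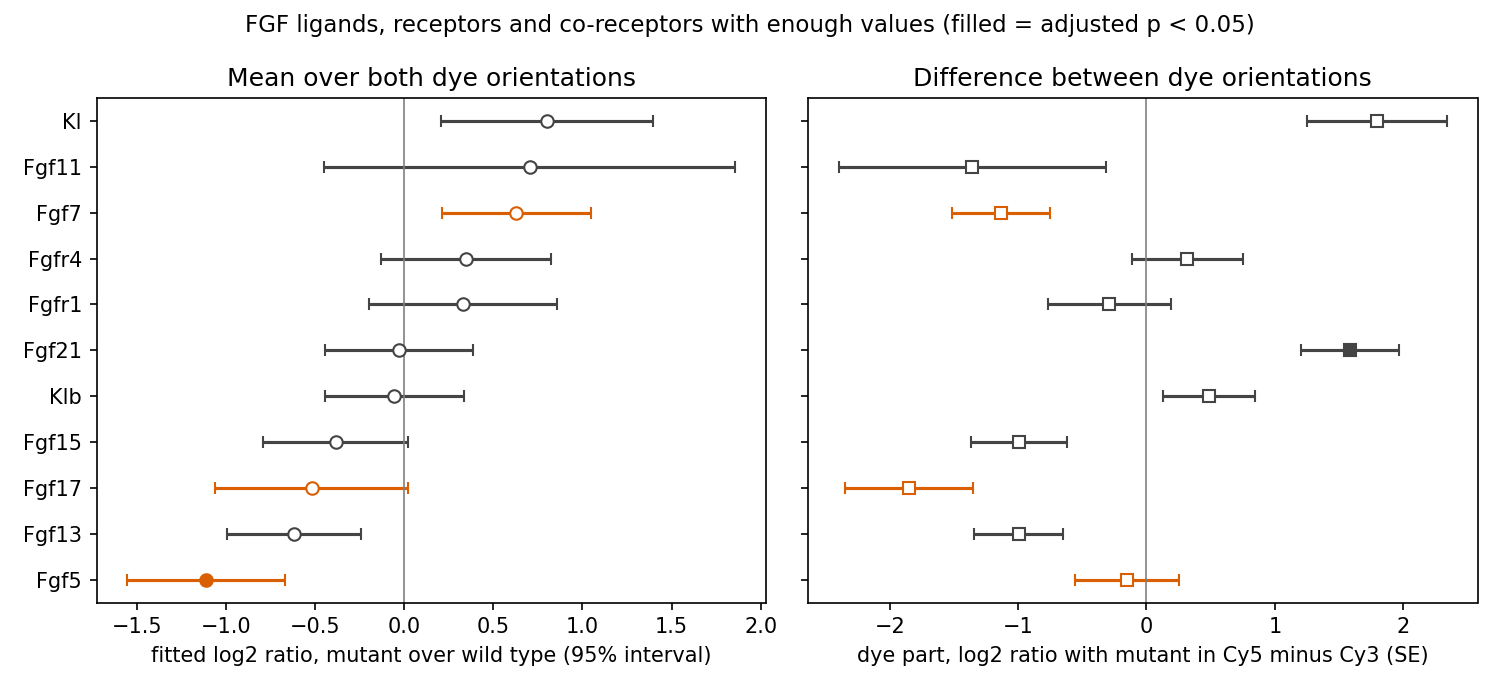
Fitted log2 ratio of mutant over wild type with its 95% interval (left) and dye part with its SE (right) for the FGF ligands, receptors and co-receptors that passed the filter, with Fgf5, Fgf7 and Fgf17 in orange and filled marks where limma's adjusted p is below 0.05. Fgf5 at -1.11 is the filled mark on the left, and Fgf21 at 1.59 is the filled mark on the right.

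Receptors and co-receptors had probes for 6 of 12 genes, and none of the 4 that passed the filter was called, where 4.21% of all probes were. Fgfr1, a receptor of dermal and papilla cells among others, had a ratio of 0.33 ± 0.24 (SE, limma, adjusted p = 0.469), with 5 of 7 arrays above 0. Array 8 held its highest value, 1.40, and without it the ratio of Fgfr1 was 0.099. Fgfr4, a receptor best known from liver, stood at 0.35 ± 0.22 (adjusted p = 0.398), with 5 of 6 arrays above 0. Kl, the co-receptor klotho, was the highest at 0.80 ± 0.27 (adjusted p = 0.123), with 3.22 on array 2, 1.98 on array 4 and -0.72 on array 3. Kl passed with quantile normalization (0.92) and array weights (0.72). Its values with the mutant in Cy5, from 0.76 to 3.22, all lay above those in Cy3, from -0.72 to 0.63. In 17.5% of probes tested the orientations did not overlap in this way. The dye part of Kl was 1.79 ± 0.55 (SE, limma, adjusted p = 0.0646), larger than its ratio. Klb, the co-receptor of the hormones Fgf15 and Fgf21, was the lowest at -0.06 ± 0.18 (adjusted p = 0.893), a direction that turned with array weights and without array 3 or 7. The probe of Fgfr3 had a value on 0 arrays, and Fgfbp1, a carrier that frees FGFs from the matrix, had 5 values from -0.33 to 0.29. Fgfr2, whose epithelial form is the receptor of Fgf7, had no named probe and was not analysed here.

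Downstream of the receptors the genes tested did not pass. Of 19 known FGF targets and inhibitors 9 had a probe and 4 passed the filter, with none called and a median ratio of 0.26. Etv4, a transcription factor induced by FGF signals, was the highest at 0.56 ± 0.23 (limma, adjusted p = 0.205), and Cbl, a ubiquitin ligase that removes active receptors, the lowest at -0.05 ± 0.20 (adjusted p = 0.915), with a sign that turned with scaling to equal spread and with quantile normalization. Between them lay Dusp6, a phosphatase that dampens the relay, at 0.24 ± 0.25, with 1.87 on array 3 and -1.41 on array 4, and Spry1, an inhibitor of the relay, at 0.28 ± 0.22. Of 28 genes of the relay from receptor to kinase 10 passed the filter and none was called, with a median ratio of 0.07 and the lowest, -0.66, for Sos1, an exchange factor of Ras, which had -5.21 on array 3 and values from -1.26 to 0.80 elsewhere. Of 28 genes of heparan sulfate 13 passed the filter and none was called, with a median of 0.11. Nearest to a call among these stood Sdc2, a syndecan of mesenchymal cells, at 0.65 ± 0.19 (limma, adjusted p = 0.0777), with 7 of 8 arrays above 0.

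Other growth factors and receptors of the hair cycle were read in the same way. Of 41 genes 32 had a probe and 21 passed the filter, of which 1 was lower, Ntf3, none was higher and 20 did not pass, where 3.53% of all probes were called lower, with a median of 0.08. A count of 1 in 21 is near that share. Ntf3 encodes neurotrophin 3, which like Fgf5 is known to hasten the end of hair growth in the mouse. Its values were -1.33, -0.54 and -0.26 on arrays 2, 6 and 7, with the mutant in Cy5, and -1.18, -1.39 and -0.83 on arrays 1, 3 and 5, with the mutant in Cy3. All 6 were below 0, with a fitted ratio of -0.92 ± 0.22 (SE, limma, adjusted p = 0.0485) and a dye part of 0.42 ± 0.45. The call of Ntf3 was lost without any of arrays 1 to 7 (ratios from -1.03 to -0.77, adjusted p from 0.0700 to 0.186). It was also lost in limma without the dye term (adjusted p = 0.0951) and among named genes only (adjusted p = 0.0579). With at least 2 of 4 values per orientation the call was lost as well (limma, adjusted p = 0.0720).

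Pth1r, the receptor of parathyroid hormone and of its related peptide, a signal known to affect the hair cycle in the mouse, failed the filter and was singled out after its values were seen. It had -5.68, -2.73, -2.56 and -1.03 on arrays 2, 4, 6 and 7, with the mutant in Cy5, and -1.46 and -2.60 on arrays 1 and 5, with the mutant in Cy3. All 6 were below 0, with the lowest on array 2. With at least 2 of 4 values per orientation its fitted log2 ratio was -2.52 ± 0.53 (SE, limma, adjusted p = 0.0440), where 2.12% of 18066 probes were called lower. Pthlh, the gene of the peptide, had a ratio of -0.38 ± 0.26 (limma, adjusted p = 0.429) in the stricter fit.

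Further factors that end the growth phase did not pass, with Tgfb1 at -0.40 ± 0.22 (limma, adjusted p = 0.337), Tgfb2 at 0.03 ± 0.19 (adjusted p = 0.956) and Bdnf at -0.41 ± 0.28 (adjusted p = 0.438). Igf1, a dermal papilla factor that keeps hair growing, stood at 0.23 ± 0.20 (limma, adjusted p = 0.566), and Tgfb1 was below 0 on 5 of 8 arrays. Of 10 follicle transcription factors and regulators that passed the filter none was called, with ratios from -0.97 for Vdr, the vitamin D receptor, to 0.47 for Foxn1, which drives hair shaft keratins. The value of Vdr on array 2 was -4.80, against values from -1.04 to -0.10 elsewhere.

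Ratios of 2 colours give no level, so the skin label could not be checked by expression, and markers of the cell types of skin were read as ratios. Of 12 dermal fibroblast and papilla markers tested, the cells that make Fgf7, 2 were higher, Vim and Fbn1, none was lower, 10 were above 0 and the median was 0.61. Of all 11974 probes 0.676% were called higher, 6588 were above 0 and the median was 0.05. Vim, the mesenchymal filament protein, rose by 1.17 ± 0.19 (SE, limma, adjusted p = 0.00493), with values of 0.90, 0.21, 0.27 and 0.47 with the mutant in Cy5, against 1.48, 2.37, 2.27 and 1.40 with it in Cy3. Like Fgf7 it was lower on every array with the mutant in Cy5, and its dye part was -1.42 ± 0.37 (limma, adjusted p = 0.0472). Such a split was seen in 10.2% of all probes tested, and 0.894% were called for a dye part in this direction. Fbn1, fibrillin, was higher at 0.75 ± 0.19 (adjusted p = 0.0420), a call lost without any 1 of the 8 arrays. The call of Fbn1 was also lost without the dye term and with centring on the array median. Its values were 1.97, 1.33, 0.86 and 1.40 with the mutant in Cy5, against 0.07, -0.27, -0.02 and 0.64 with it in Cy3. Its dye part was 1.28 ± 0.37 (limma, adjusted p = 0.0578), opposite in sign to those of Vim and Fgf7. In 17.5% of all probes tested the orientations did not overlap in this way. The list medians per array ran from -0.03 on array 2 to 0.71 on array 8, and their part in the ratio of Fgf7 was not tested.

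Markers of the outer root sheath, the cells that make Fgf5, had 4 members tested with none called and a median of 0.08, and 2 were above 0 and 2 below, with Krt6b at -0.32 ± 0.24 the lowest (limma, adjusted p = 0.491). Of 4 keratinocyte markers tested, Krt1 was higher at 1.30 ± 0.26 (limma, adjusted p = 0.0179), a call lost without array 1 (1.19) or array 5 (1.26), without the dye term (1.25) and with arrays 4 to 8 alone (0.97). Ivl, involucrin of the cornified envelope, lay on the other side at -1.06 ± 0.28 (limma, adjusted p = 0.0624). Its dye part was -1.87 ± 0.56 (limma, adjusted p = 0.0654), with every value with the mutant in Cy5 below those in Cy3. Such a split was seen in 10.2% of probes tested. Cfd, an adipocyte protein, was the 1 of 6 adipocyte markers called, at 1.96 ± 0.32 (adjusted p = 0.00683), where 0.676% of all probes were called higher. Car3 of the same list was below 0 on 7 of 7 arrays, at -0.86 ± 0.23 (limma, adjusted p = 0.0570), and Pparg stood at -0.11 ± 0.24. Of 11 immune markers Mcpt2, of mast cells, was higher at 1.05 ± 0.18 (adjusted p = 0.00687) and C1qb, of macrophages, was lower at -1.37 ± 0.25 (adjusted p = 0.0111), lost without array 1. C1qa at 0.39 ± 0.20 and Tyrobp at 0.71 ± 0.26 lay on the other side of 0 from C1qb without passing. Lyz2 at -0.74 ± 0.21 and C1qc at -0.28 ± 0.27 lay on the side of C1qb, also without passing. Of the other mast cell genes of the list, Mcpt4 stood at 0.05 ± 0.22 (limma, adjusted p = 0.928) and Kit at -0.01 ± 0.21 (limma, adjusted p = 0.978). Cpa3 failed the filter, with 5 values from -2.20 to 0.79. The median of the immune list was 0.39, and 4.21% of all probes were called in either direction. Mbp, of myelin, was the 1 of 5 nerve markers called, at -0.90 ± 0.20 (adjusted p = 0.0287), a call lost without any of the arrays except array 4, and without the dye term. None of 2 skeletal muscle, 4 vessel and blood and 5 melanocyte markers was called, with medians of -0.88, 0.10 and 0.01. The part of these cell types in the ratio of Fgf5 was not tested.

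The named genes whose ratios ran most like each FGF gene over the arrays were found by Pearson's r among genes with values on the same arrays. For Fgf5 they were Ly86, a partner protein of a lymphocyte surface receptor, with r = 0.945, Zp1, a protein of the egg coat, with r = 0.945, and Trappc2l, of vesicle traffic, with r = 0.942, over 7 arrays and 2184 genes. Ly86 also lay close in level of the ratio, with a mean of -0.89 and all 7 arrays below 0, while Zp1 and Trappc2l had means of -0.10 and -0.01. For Fgf7 they were Gch1, the first enzyme of tetrahydrobiopterin synthesis, with r = 0.988, and Bysl, of ribosome assembly, and Ccnc, cyclin C, each with r = 0.987 over 7 arrays and 1735 genes. For Fgf17 they were Efnb3, an ephrin, with r = 0.990, H2al1m, a histone variant, with r = 0.988, and Xrcc6, of DNA repair, with r = 0.987 over 8 arrays and 1611 genes. The arrays share dye orientation and spread, which enter every such r. Each r is also the top of a search over many genes on few arrays. How high r would run by chance in such a search was not tested.

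Hr itself had values on 6 arrays, -0.44, -1.16, 0.33 and 0.11 with the mutant in Cy5, against 0.60 and -0.47 with it in Cy3, with a mean of -0.17 ± 0.64 (SD, exact sign-flip test, two-sided, p = 0.594). The values lay on both sides of 0 and do not check the labels, since it is not known here whether the probe covers the altered part of the gene. Fgf17 lies near Hr on mouse chromosome 14, with 3 protein-coding genes between them, Nudt18, Fam160b2 and Dmtn. Of these Dmtn was the 1 with a named probe, and it had values on 4 arrays, -0.04, 0.64 and 0.87 with the mutant in Cy5, against -0.35 with it in Cy3.

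**Figure D4:**
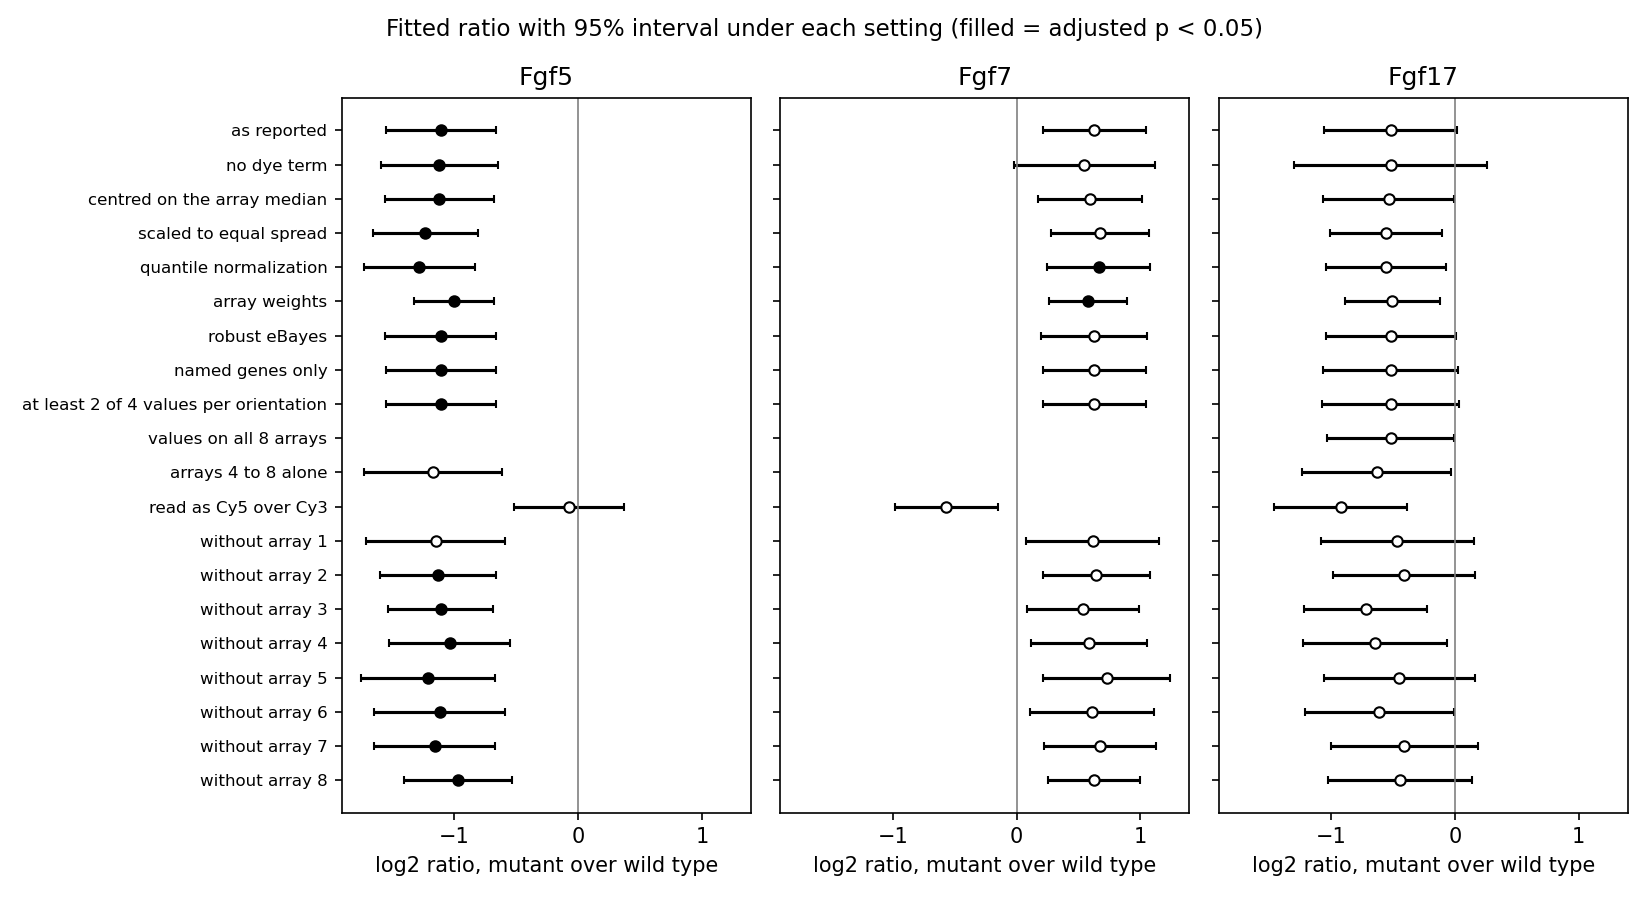
Fitted log2 ratio of mutant over wild type with its 95% interval for Fgf5, Fgf7 and Fgf17 under each setting, with filled marks where limma's adjusted p is below 0.05. Fgf5 stays between -1.28 and -0.97 in all settings except the reading as Cy5 over Cy3, at -0.08, and Fgf7 and Fgf17 cross the threshold in 2 and 0 settings.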

How the data were processed

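Skin RNA of mutant and wild type pups was compared on 8 arrays. The authors deposited log2 ratios of the 2 channels, already centred near 0, and the base of 2 is assumed from the range of the values, since no label or header names the base, the direction, the image analysis or the normalization. Dyes were coupled and arrays hybridized by TIGR's standard protocols, per the labels. Control rows (1235 of 23232) were left out and the 232 Gapdh spots averaged. Rows were named by RefSeq accession without version (6749) or synonym (77) from a gene table of GRCm38.p6, and 15171 had no name.

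Probes with at least 3 of 4 values per dye orientation were fitted in limma 3.58.1 (R 4.3.3) with a mean and a dye term, empirical Bayes moderation and Benjamini-Hochberg adjustment over all 11974 probes, of which 81 were called higher and 423 lower. With quantile normalization the split was 380 and 757. On simulated data with independent noise and changes of 1.5 on the log2 scale, the fit recovered 79.5% of 200 changed probes, with 0 false calls. Those changes were larger than that of Fgf5, and arrays sharing an animal were not simulated. The genes, lists and tests were chosen with earlier results of these data known. Named were the 3 genes, list members past the threshold, the extremes of the ligand, receptor and target lists, ligands and receptors with at least 6 values, the 3 genes most alike by r, and Hr. Other members were picked afterwards as examples. Spot intensities were not used here, so the number of arrays limits the precision.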

Additional observations from a re-analysis of the deposited data

Results flagged for a closer look

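Dixon's test was run on 33 genes and set 1 array apart in 2 of them, where about 1 in 20 genes, here 1.65, would be set apart by chance. Fgf11 stood at 4.43 on array 1, far above its other 5 values. Mcpt2 stood at 0.15 on array 5, below its other 7 values, and all 8 were above 0.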

How the results depend on the processing

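Fgf5 kept its direction and its call under 9 of 11 other settings and 7 of 8 fits without 1 array (-1.22 to -0.97). The 9 include the exact sign-flip test, whose p of 0.0156 was not adjusted over probes and is the lowest possible with 7 arrays. Fgf5 lost the call with arrays 4 to 8 alone (-1.17) and read as Cy5 over Cy3 (-0.077). Fgf7 ran from 0.54 to 0.73 without 1 array, passed with quantile normalization (0.66) and array weights (0.58), and turned to -0.57 read as Cy5 over Cy3. Fgf17 passed under none (-0.72 to -0.41 without 1 array, and -0.93 read as Cy5 over Cy3). The dye part of Fgf5, never past the test, ran from -0.44 to 0.057 without 1 array and turned to 0.093 with equal spread and 0.15 with quantile normalization. That of Fgf7 (-1.34 to -0.95 without 1 array) passed with equal spread (-1.21), quantile normalization (-1.26), array weights (-0.92) and without array 8 (-1.13). That of Fgf17 (-2.11 to -1.44 without 1 array) passed with equal spread (-1.57), quantile normalization (-1.75), array weights (-1.26), and at -1.85 with robust moderation and with probes on all 8 arrays. The settings for dye parts were added after the data were seen. No value came from the setting of all 8 arrays for Fgf5 and Fgf7, which each lack 1, nor for Fgf7 from arrays 4 to 8. The 504 called probes became 258 without a dye term, 1137 with quantile normalization, 1384 with array weights, 131 among 3779 named genes, 46 with arrays 4 to 8 alone and 178 to 451 without 1 array, lowest without array 1. Read as Cy5 over Cy3, Ntf3 turned to 0.21, Krt1 to -0.40, Vim to -0.71, Fgf11 to -0.68, Klb to 0.24, Etv4 to -0.42, Fgf21 to 0.79 and Fgfr1 to -0.15, while Cfd (0.024), Mcpt2 (0.15), C1qb (-0.35), Fbn1 (0.64) and Mbp (-0.54) lost their calls. With arrays 4 to 8 alone Krt1, Fbn1, Vim, Cfd, Mcpt2, C1qb and Mbp all lost theirs. With arrays 4 to 8 alone Fgf11 turned to -0.057 and Klb to 0.034. With array weights Klb turned to 0.040, Cbl to 0.050 and Fgf21 to 0.029, and Cbl turned to 0.00052 with equal spread and 0.024 with quantile normalization. Without 1 array Fgf11 ran from -0.057 to 1.22, Klb from -0.12 to 0.021, Cbl from -0.15 to 0.035 and Fgf21 from -0.11 to 0.072. The cause of these changes was not tested. No paired analysis was possible because the labels tie no arrays to each other.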

Other observations

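Sdc3, a heparan sulfate proteoglycan that can bind FGFs, had too few values for the test and was singled out after its values were seen. It had -1.57, -0.80, -1.08 and -0.85 with the mutant in Cy5 and -0.52 and -0.74 with the mutant in Cy3, all below 0. With at least 2 of 4 values per orientation its fitted log2 ratio was -0.85 ± 0.22 (SE, limma, adjusted p = 0.0893), which did not pass.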
